A study of Rattus norvegicus with 33 samples.

Results

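The cell division genes described here are 37 genes whose products copy DNA or carry out mitosis, of which 27 act in mitosis and 10 in DNA replication or nucleotide supply. They were listed by gene name, with earlier results of these data known. Each was read from a probe set whose platform annotation gives a single gene symbol. Where a gene had several, the one whose mean over the 33 arrays was highest was kept. Of the 37 genes, 34 were measured, 25 of the mitosis genes and 9 of the replication genes, among 18166 genes with such a probe set. Cenpe, Birc5 and Rrm1 have no single-symbol probe set, so their expression was not analysed here. Cdca8 was measured but exceeded the low-value floor of the test (7.645 on the log2 scale, in at least 3 arrays) in 1 array, so 33 members were tested.

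RNA of the fifth caudal mammary glands, left and right, of female Sprague-Dawley rats was measured on 33 Affymetrix whole-transcript arrays. Every animal was a vehicle control given olive oil by gavage, and carried no transgene or deletion named in the labels. Pre-pubertal glands were taken at postnatal day 21 (n = 10 arrays), peri-pubertal glands at day 42 (n = 5), pubertal glands at day 63 (n = 5), lactating glands at day 146 (n = 3), and glands of nulliparous and of parous adults at day 181 (n = 5 each). Rats were taken without regard to the phase of the estrous cycle, and the phase is not given for any array. Sources differ on whether the 10 pre-pubertal arrays stand for 10 or 5 animals; if fewer than 10, the errors and p-values given here for that stage are too small.

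The labels place the arrays in 3 batches. Batch 1 holds 6 arrays of day 21 and 3 each of day 42, day 63, nulliparous and parous glands. Batch 2 holds 4 arrays of day 21, 2 each of day 42 and day 63 and all 3 lactation arrays. Batch 3 holds 2 nulliparous and 2 parous arrays, extracted with a Zymo kit in place of the Promega kit, so kit and batch 3 cannot be told apart. Array medians lay between 6.78 and 6.96 (log2), and no arrays were duplicates. The tissue carried mammary markers: the mean of 14 luminal epithelial genes such as Krt8, Krt18 and Epcam lay between 6.60 and 9.52 at day 21 and between 9.34 and 11.14 in all later arrays. In whole-gland RNA, fewer cells of a type and less RNA per cell cannot be told apart.

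Cell division genes are transcribed in waves. Before DNA synthesis, the MCM helicase subunits, the sliding clamp Pcna and the enzymes of deoxynucleotide supply, Rrm2 and Tyms, are induced, largely through E2F factors that are held back by Rb1 in resting cells. The mitosis genes, which include cyclins, kinases, motor proteins and checkpoint proteins, follow later and are controlled by the DREAM and MuvB-FOXM1 complexes through an element called CHR, and by NF-Y at CCAAT boxes. In the mammary gland, division of epithelial cells accompanies duct growth in puberty, recurs with the estrous cycle and expands the alveoli in pregnancy.

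The promoters of the members were searched for these elements. The 250 bases before the gene start were found for 31 of the 37 members in RefSeq sequence of the rat assembly GRCr8, and were read on both strands. Cenpe, Birc5 and Rrm1, whose expression was not measured, are among the 31. The CHR was searched as TTTGAA and the CCAAT box by its 5 letters. The E2F core was searched as TTCCCGC and, as an alternative spelling, TTGGCGC. The CHR letters stood in 11 of 23 mitosis promoters (47.8%) and 1 of 8 replication promoters (12.5%), against 16.0% of 27457 promoters. The CCAAT box stood in 82.6% of the mitosis and 75.0% of the replication promoters, against 34.3% of all. The E2F letters stood in 3 of 23 mitosis promoters (13.0%) and 5 of 8 replication promoters (62.5%), against 5.32% of all. The CHR and the CCAAT box stood together in 11 of 23 mitosis promoters (47.8%) and 0 of 8 replication promoters, against 5.76% of all. The second E2F spelling, read on the other strand, can share letters with a CCAAT box. These matches are letters in a window, not measured binding.

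The 6 promoters below are examples from genes with stage differences described later (Top2a, Ccnb2, Mcm5, Mcm6, Tyms) or with the single-array pattern (Cdk1). Other members called later differ from them: Bub1 holds none of the 3 elements, Mcm2 holds 2 CHR and neither other element, and Mcm3 holds 3 CCAAT boxes and no E2F match. Each is the 250 bases before the gene start, 5′ to 3′ on the gene's strand, with the matched letters in capitals. Top2a (chr10:84473094-84473343, minus strand), which encodes the topoisomerase that untangles sister chromatids, holds 4 CCAAT boxes, all on the opposite strand (ATTGG), and 1 CHR, also on the opposite strand. Ccnb2 (chr8:79981659-79981908, minus strand), a mitotic cyclin, holds 2 CHR and 3 CCAAT matches. Cdk1 (chr20:19265043-19265292, plus strand), the kinase that drives entry into mitosis, holds 2 CHR, 3 CCAAT and 1 E2F match.
Top2a: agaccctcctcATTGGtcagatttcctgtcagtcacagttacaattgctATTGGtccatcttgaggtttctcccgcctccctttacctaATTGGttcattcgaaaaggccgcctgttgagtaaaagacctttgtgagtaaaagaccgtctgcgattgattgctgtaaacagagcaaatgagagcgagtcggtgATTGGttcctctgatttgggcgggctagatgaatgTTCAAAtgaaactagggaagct
Ccnb2: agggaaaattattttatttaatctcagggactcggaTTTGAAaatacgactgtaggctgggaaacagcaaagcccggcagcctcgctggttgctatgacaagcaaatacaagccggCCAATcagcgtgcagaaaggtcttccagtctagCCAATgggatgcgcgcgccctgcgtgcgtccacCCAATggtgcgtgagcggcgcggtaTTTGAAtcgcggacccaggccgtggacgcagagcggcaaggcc
Cdk1: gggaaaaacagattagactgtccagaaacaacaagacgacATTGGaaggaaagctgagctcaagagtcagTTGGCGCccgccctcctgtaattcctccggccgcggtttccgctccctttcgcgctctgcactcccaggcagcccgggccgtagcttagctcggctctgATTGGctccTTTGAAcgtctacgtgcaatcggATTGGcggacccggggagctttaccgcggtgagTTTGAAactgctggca

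The replication promoters hold no CHR in these 3 cases. Mcm5 (chr19:13488563-13488812, plus strand) and Mcm6 (chr13:42404353-42404602, minus strand), both helicase subunits, hold 2 E2F matches each, beside 3 and 2 CCAAT boxes. Tyms (chr9:120776084-120776333, minus strand), which encodes thymidylate synthase, holds 1 E2F match and neither of the other elements.
Mcm5: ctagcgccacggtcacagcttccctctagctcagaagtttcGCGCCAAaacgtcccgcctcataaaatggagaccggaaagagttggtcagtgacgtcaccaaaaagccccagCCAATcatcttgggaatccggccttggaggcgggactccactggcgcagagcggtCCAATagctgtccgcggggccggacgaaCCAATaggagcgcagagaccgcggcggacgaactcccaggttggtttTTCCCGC
Mcm6: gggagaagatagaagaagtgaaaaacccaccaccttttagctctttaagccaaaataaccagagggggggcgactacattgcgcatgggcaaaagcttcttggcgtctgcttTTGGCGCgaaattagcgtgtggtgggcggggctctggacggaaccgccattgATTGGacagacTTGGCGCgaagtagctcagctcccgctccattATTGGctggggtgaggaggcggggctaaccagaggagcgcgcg
Tyms: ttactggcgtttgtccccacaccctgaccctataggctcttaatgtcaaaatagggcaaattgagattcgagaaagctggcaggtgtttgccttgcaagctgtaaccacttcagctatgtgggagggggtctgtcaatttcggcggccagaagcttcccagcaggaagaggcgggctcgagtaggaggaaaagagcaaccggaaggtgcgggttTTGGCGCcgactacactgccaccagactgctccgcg

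The members varied far more between arrays of the same stage than most genes did. After stage and batch were accounted for in a linear model over all 33 arrays, the SD left between arrays (residual SD) had a median of 0.741 on the log2 scale over the 33 members tested and 0.187 over all 10986 genes tested. It was 0.796 for the 24 mitosis genes and 0.487 for the 9 replication genes. In 30 of 33 members it exceeded 0.385, the 90th percentile of all genes. The highest values were those of Rrm2, the small subunit of ribonucleotide reductase (0.978), Ect2, which acts in cytokinesis (0.967), and Mki67, which encodes the Ki-67 antigen of dividing cells (0.939). Mcm7, a helicase subunit, had the lowest (0.329), followed by Tyms (0.343) and the spindle kinase gene Aurka (0.364).

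**Figure D1:**
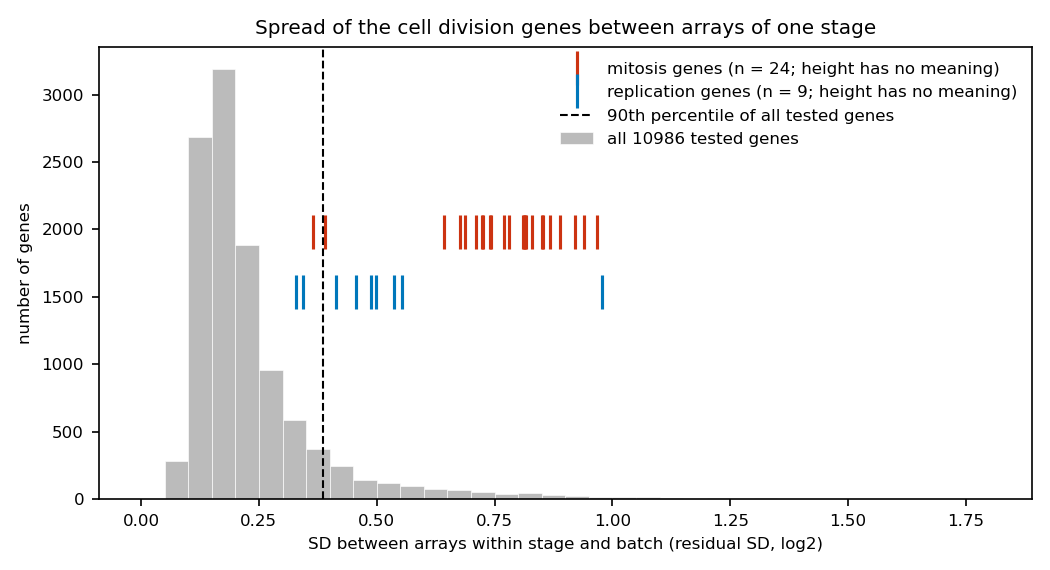
Histogram of the residual SD (log2, horizontal axis) of all 10986 genes tested, with a tick for each of the 24 mitosis and 9 replication genes; the vertical axis counts genes and applies to the bars only. The dashed line is the 90th percentile of all genes (0.385), and 30 of the 33 ticks lie to its right.

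Within a stage, the members were high together and low together in the same arrays. At day 42, array 2 was the highest of its 5 arrays in 34 of 34 members. At day 21, array 8 was the highest of 10 in 32 of 34. Parous array 2 was the highest of 5 in 30 of 34 and nulliparous array 3 the highest of 5 in 30 of 34. At day 63 the top place was shared between array 4 (19 members), array 3 (11) and array 2 (4). The lowest places were held by day 63 array 1 (29 members), day 42 array 1 (28), day 21 array 4 and lactation array 2 (24 each), parous array 1 (21) and nulliparous array 1 (20).

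The leading array stood well above its stage. Over the 25 mitosis genes, the median gap between the highest array and the median of the others was 2.08 (log2) at day 42, or 4.23-fold, and 1.94 in parous glands, or 3.84-fold. It was 1.39 at day 21, 1.08 in nulliparous glands, 1.04 at day 63 and 0.35 in lactation. The same gap over the 9 replication genes was 1.32 at day 42, 1.06 in parous glands, 1.04 in nulliparous glands, 0.94 at day 21, 0.52 at day 63 and 0.30 in lactation. The median SD of the mitosis genes between arrays was also lowest in lactation (0.27, n = 3), against 0.57 to 1.09 at the other 5 stages. The mean of these genes lay between 6.82 and 7.20 in the lactation arrays, under the low-value floor of 7.645. Lactation alone lies in a single batch, and these gaps and SDs were taken without a batch term. Whether low values, the few arrays or the single batch narrow this spread was not tested.

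**Figure D2:**
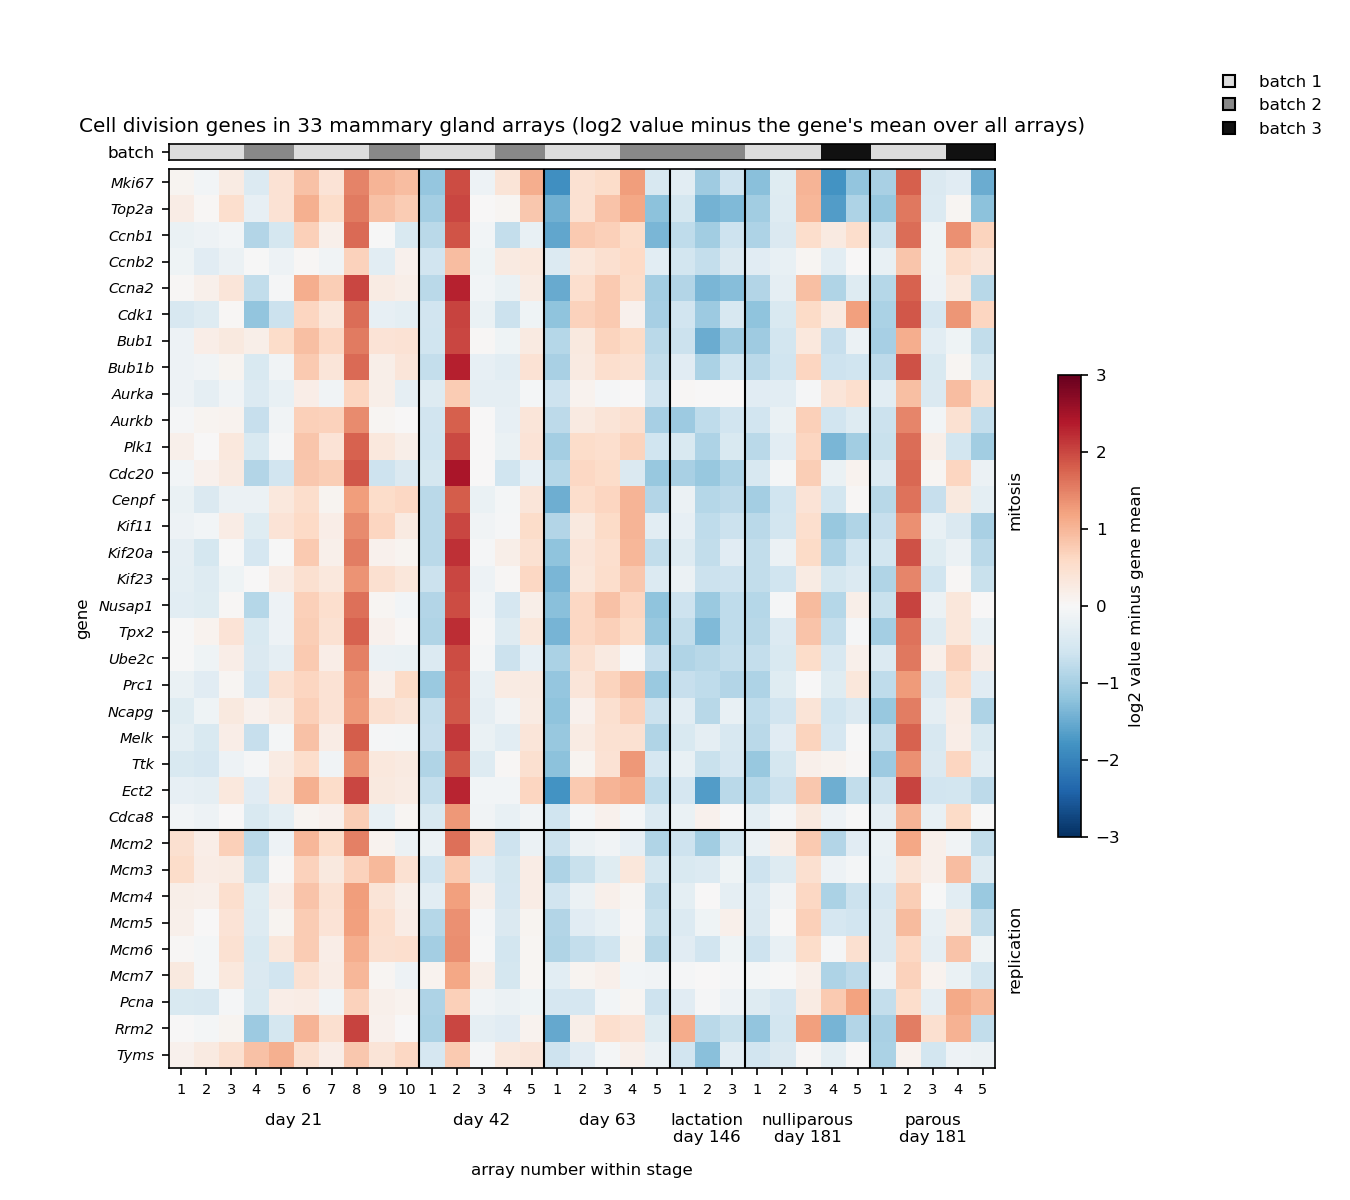
Heat map of the 34 measured members (rows, mitosis genes above the line and replication genes below it) in 33 arrays (columns, grouped by stage, batch marked in the top strip); colour is the log2 value minus the gene's mean over all arrays. Array 2 of day 42 is the highest of its stage in 34 of 34 members, array 8 of day 21 in 32 and array 2 of the parous stage in 30.

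Mki67 shows the pattern array by array. At day 21 it ran from 9.16 to 11.05 with a median of 10.00 (log2 values throughout). At day 42 its 5 arrays, in order of number, read 8.42, 11.53, 9.41, 9.95 and 10.65, and at day 63 they read 7.73, 10.03, 10.13, 10.82 and 9.08. These 2 groups covered much the same span. Lactation arrays read 9.26, 8.51 and 8.96, nulliparous arrays 8.31, 9.20, 10.60, 7.78 and 8.38, and parous arrays 8.59, 11.36, 9.14, 9.22 and 8.09. The difference between the highest and lowest array of a stage reached 3.27 in parous glands (9.63-fold) and the arrays of every stage overlapped those of every other stage.

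Top2a followed the same arrays. It ran from 8.34 to 10.15 at day 21 (median 9.12), read 7.58, 10.60, 8.60, 8.65 and 9.40 at day 42, and 7.14, 9.05, 9.44, 9.74 and 7.36 at day 63. Lactation arrays read 8.05, 7.18 and 7.27, all below the lowest day 21 array. Nulliparous arrays read 7.55, 8.20, 9.59, 6.91 and 7.66, and parous arrays 7.46, 10.17, 8.18, 8.64 and 7.35. Cdk1 was at 9.77 in day 42 array 2 against 7.10 to 7.62 in the other 4 arrays. In batch 3 Cdk1 behaved otherwise than Mki67: nulliparous array 5 held its highest nulliparous value (8.97), where Mki67 was at 8.38. Rrm2 departed from the others in lactation, with 9.57 in array 1 against 7.65 and 7.79 in arrays 2 and 3.

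Stage means of the mitosis genes were lowest in lactation in 21 of 25, and highest at day 21 in 9, at day 42 in 8 and in parous glands in 8. The replication genes had another order: the lowest mean lay at day 63 in 4 of 9, in nulliparous glands in 3 and in lactation in 2, and the highest at day 21 in 6. These means were taken without the batch term, and all 3 lactation arrays lie in batch 2. Cdc20, lowest in lactation, was lower in batch 2 than in batch 1 (-1.11 ± 0.31). Pcna, highest in parous glands, was higher in batch 3 (1.21 ± 0.25). The order also depends on the probe set in Mcm3, Mcm4 and Rrm2, as given below. Neighbouring stages in these orders mostly did not differ beyond the spread of the arrays. In an F test for any stage difference (limma, Benjamini-Hochberg adjustment over all genes tested, called at an adjusted p under 0.05), 2 of 33 members passed (6.06%), against 65.9% of all genes. They were Tyms (adjusted p = 2.31e-05) and Bub1, a spindle checkpoint kinase (adjusted p = 0.045). Leaving out any of 15 arrays left Tyms as the 1 gene called, and without day 42 array 1, day 42 array 2 or day 63 array 4 the count was 4. Within batch 1 the 1 gene called was Mcm3, and within batch 2 the 3 called were Bub1, Ccnb2 and Tyms.

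**Figure D3:**
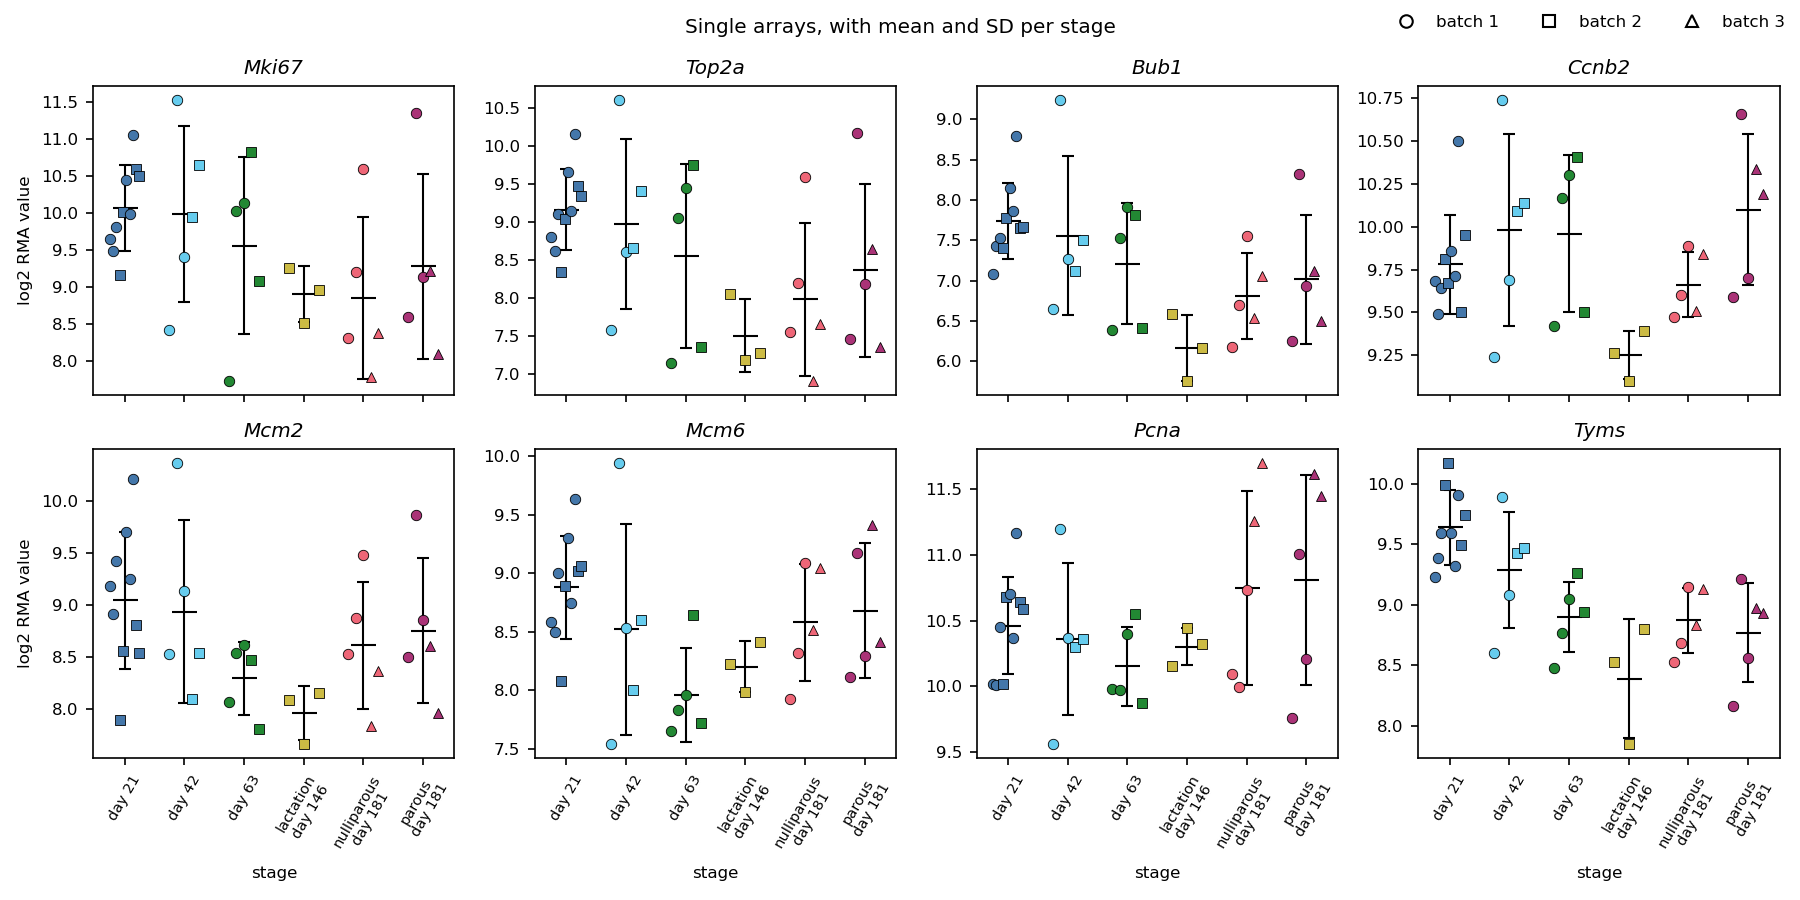
Log2 values (vertical axis) of 4 mitosis genes (top row) and 4 replication genes (bottom row) in every array by stage (horizontal axis); bars are the stage mean and SD, and the marker shape is the batch. Tyms is highest at day 21 and lowest in lactation, while in Mki67 and Top2a the arrays of most stages overlap.

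From day 21 to day 42, when ducts extend into the fat pad, the median difference was -0.03 over the 33 members and 0 of 33 passed, against 32.3% of all genes called in either direction (limma, 9 comparisons in the same fit); 0 had an unadjusted p under 0.05. A difference is the model's log2 value of the first-named stage minus the second, with its SE. Mki67 differed by -0.08 ± 0.48, with a 95% interval from -1.06 to 0.91, Cdk1 by 0.15 ± 0.44 and Pcna by -0.11 ± 0.21. Mitosis genes were divided, with 12 positive and 11 negative differences, while 8 of 9 replication genes had negative ones. Among all genes, 50% were negative. Without day 42 array 2, the median difference was -0.44 and the count 2, Mcm6 and Tyms, both lower. Within batch 1 and within batch 2 it was 0.

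From day 42 to day 63, 0 of 33 members passed, against 1.22% of all genes (limma), and 1 had an unadjusted p under 0.05, Mcm2 (-0.63 ± 0.30, adjusted p = 0.315). All 33 differences were negative, with a median of -0.34, against 51.7% negative among all genes. Since the members move together in single arrays, 33 negative values are not 33 separate observations. The same holds for the counts of positive and negative differences in the other comparisons. Mki67 differed by -0.43 ± 0.56 and Plk1, a mitotic kinase, by -0.30 ± 0.43.

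Between day 21 and day 63, 6 of 9 replication genes fell and 3 did not pass, and 0 of 24 mitosis genes passed (limma; no mitosis gene had an unadjusted p under 0.05 either). In all, 6 of 33 members were lower (18.2%), close to the 18.8% of all genes called lower. Mcm6 fell by 0.92 ± 0.29 (1.89-fold, adjusted p = 0.0121), Mcm3 by 0.77 ± 0.25 (adjusted p = 0.0169), Mcm2 by 0.75 ± 0.26 (adjusted p = 0.0224), Mcm5 by 0.75 ± 0.28 (adjusted p = 0.0337) and Mcm4 by 0.64 ± 0.24 (adjusted p = 0.0336). These encode 5 of the 6 subunits of the replicative helicase. Tyms fell by 0.74 ± 0.18 (1.67-fold, adjusted p = 0.00157).

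The arrays behind these values overlapped between the stages in all 6 genes. Mcm6 ran from 8.08 to 9.63 at day 21 (median 8.94) and read 7.65, 7.83, 7.96, 8.64 and 7.72 at day 63. Of these, 4 of 5 lay below the lowest day 21 array. Tyms ran from 9.23 to 10.17 at day 21 (median 9.59) and read 8.48, 8.77, 9.05, 9.26 and 8.94 at day 63. Array 4 of day 63, the highest in Mki67, was the 1 that reached the day 21 range in each of these 2 genes.

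Lists of other cell types moved in the same comparison: 10 of 11 T cell genes (median -1.60), 3 of 8 B cell genes (median -1.19), 3 of 5 lymph node chemokine genes (median -1.43) and 10 of 10 adipocyte genes (median -1.08) fell, and 13 of 14 luminal genes rose (median 1.58). Their part in the members' differences was not tested beyond the covariate fits given below.

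The other replication genes did not pass: the sixth helicase subunit gene Mcm7, Pcna (-0.31 ± 0.21) and Rrm2 (-0.37 ± 0.50). Among mitosis genes, Mki67 differed by -0.51 ± 0.48 with a 95% interval from -1.50 to 0.47, which includes the size of the Mcm changes. Ccnb1, the main mitotic cyclin, differed by -0.20 ± 0.43, Cdk1 by -0.07 ± 0.44 and Aurka by -0.17 ± 0.19. The median difference was -0.33 over mitosis genes and -0.74 over replication genes, and the difference between the sets was not tested. Mcm6 and Tyms passed whichever of the 15 arrays was omitted; without day 63 array 1 or array 2 the count fell to 2. It was 4 within batch 1 (Mcm2, Mcm3, Mcm6 and Tyms), 0 within batch 2, 3 without a batch term, 2 with a B cell covariate (the list mean) and 1 (Tyms) with a luminal or a T cell covariate.

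Between day 63 and nulliparous adult glands, 0 of 33 members passed, against 4.27% of all genes (limma), and 0 had an unadjusted p under 0.05. All 24 mitosis differences were negative (median -0.27), and 6 of 9 replication differences were positive (median 0.13), against 52.9% negative among all genes. Against day 21, which shares its arrays with the comparison above, 1 of 33 was lower in nulliparous glands (3.03%), against 14.4% of all genes called lower. This was Tyms, which fell by 0.75 ± 0.21 (1.68-fold, adjusted p = 0.00654). Its nulliparous arrays read 8.53, 8.68, 9.15, 8.83 and 9.13, all below the lowest day 21 array (9.23). All 33 differences from day 21 were negative, with a median of -0.57, against 55.8% negative among all genes. Bub1 differed by -0.95 ± 0.41 (adjusted p = 0.0834). Within batch 1 the count was 0.

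In lactating glands the mean of the 25 mitosis genes lay between 6.82 and 7.20 in the 3 arrays, below all 10 arrays of day 21 (7.28 to 9.20). Against day 21, 3 of 33 members were lower (9.09%), against 24.5% of all genes called lower. Tyms fell by 1.44 ± 0.23 (2.72-fold, adjusted p = 6.23e-06), Top2a by 1.62 ± 0.62 (3.07-fold, adjusted p = 0.027) and Bub1 by 1.42 ± 0.46 (2.68-fold, adjusted p = 0.0105). Bub1 read 6.59, 5.76 and 6.17 in lactation against 7.08 to 8.80 at day 21 (median 7.66), and Tyms read 8.53, 7.85 and 8.80 against 9.23 to 10.17. The groups do not overlap in either gene. All 3 Bub1 values in lactation lie under the low-value floor of 7.645, which this gene exceeded in 10 of 33 arrays.

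In the same comparison 7 of 8 B cell genes (median -2.21), 10 of 11 T cell genes (median -1.81), 5 of 5 lymph node chemokine genes (median -2.88), 8 of 8 fibroblast genes (median -2.09) and 10 of 10 adipocyte genes (median -1.94) fell, and 14 of 14 luminal genes rose (median 2.85). Their part in the members' differences was not tested beyond the covariate fits.

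In 10 of 33 members every lactation array lay below every day 21 array, 9 of them mitosis genes, against 14.8% of all genes. This count reads the arrays without the batch term, and all 3 lactation arrays but 4 of the 10 day 21 arrays lie in batch 2, where the model gave lower values than in batch 1 for Cdc20 (-1.11 ± 0.31, adjusted p = 0.00309) and Ube2c (-0.66 ± 0.28, adjusted p = 0.044). The 10 members were Tyms, Top2a, Bub1, Ccnb2, Ccna2 (the S and G2 cyclin), Cdc20 and Ube2c (an activator and the ubiquitin-conjugating enzyme of the anaphase-promoting complex), Tpx2 (a spindle assembly factor), Prc1 (a midzone bundler) and Ect2. Ect2 exceeded the low-value floor in 8 of 33 arrays. Mki67 differed by -1.33 ± 0.63 (adjusted p = 0.072). Plk1 (-0.74 ± 0.49), Ccnb1 (-0.40 ± 0.55), Cdk1 (-0.20 ± 0.57) and Aurka (0.19 ± 0.25) did not pass. The replication genes other than Tyms did not pass, with differences for Mcm2 of -0.59 ± 0.33, Mcm5 of -0.33 ± 0.36, Pcna of -0.18 ± 0.28 and Rrm2 of -0.03 ± 0.65. Within batch 2, which holds all lactation arrays and 4 of day 21, 9 members were lower, among them Mki67, Top2a, Bub1 and Tyms. The count was 1 without lactation array 2, 5 without day 21 array 4 and 1 with a luminal covariate, and Tyms passed whichever of the 13 arrays was omitted.

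Against day 63, 2 of 33 members were lower in lactation (6.06%), against 16.9% of all genes called lower. Ccnb2 fell by 0.72 ± 0.29 (1.64-fold, adjusted p = 0.0474) and Tyms by 0.70 ± 0.25 (1.62-fold, adjusted p = 0.0288). Ccnb2 read 9.26, 9.10 and 9.39 in lactation against 9.42, 10.17, 10.30, 10.41 and 9.50 at day 63. The groups do not overlap, though the day 63 arrays 1 and 5, the low ones in Mki67, lie just above the lactation arrays. Mitosis differences were negative in 22 of 24 (median -0.48) and replication differences positive in 8 of 9 (median 0.30), against 44.7% negative among all genes. Mki67 differed by -0.82 ± 0.69 and Mcm5 by 0.42 ± 0.40. Both calls rested on few arrays: without day 63 array 3 or array 4, or without lactation array 2, the count was 0, and without day 63 array 2, lactation array 1 or lactation array 3 it was 1. Within batch 2 it was 1 (Ccnb2).

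Between lactating and parous glands, 0 of 33 members passed, against 32.9% of all genes (limma), and 1 had an unadjusted p under 0.05, Ccnb2 (0.80 ± 0.33, adjusted p = 0.0641). Differences were positive in 23 of 24 mitosis genes (median 0.60) and 7 of 9 replication genes (median 0.12), against 55.5% negative among all genes. In 4 of 33 members, Ccnb2, Ccna2, Cdc20 and Ube2c, every parous array lay above every lactation array, a share close to the 13.3% of all genes. Here too the arrays are read without the batch term, the stages share no batch, and Cdc20 and Ube2c were lower in batch 2, which holds the lactation arrays. Mki67 differed by 1.12 ± 0.79 with a 95% interval from -0.50 to 2.74. No batch holds arrays of both stages, so the comparison has no value within a batch and rests on the batch terms estimated from other stages. The count was 2 without parous array 1 and 1 without parous array 3.

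Between parous and nulliparous glands of the same age, 0 of 33 members passed, against 0.0182% of all genes (limma), and 0 had an unadjusted p under 0.05. All 24 mitosis differences were positive (median 0.38), against 51% negative among all genes. Mki67 differed by 0.42 ± 0.56, Top2a by 0.38 ± 0.55 and Aurka by 0.29 ± 0.22. Among replication genes, Pcna differed by 0.06 ± 0.25 and Rrm2 by 0.82 ± 0.58. Within batch 1 the count was 0 with a median difference of 0.35.

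Some members also moved with batch. Pcna was higher in batch 3 than in batch 1 by 1.21 ± 0.25 (limma, adjusted p = 8.19e-05), and its 4 batch 3 arrays read 11.26 and 11.70 (nulliparous) and 11.62 and 11.45 (parous), against 9.76 to 11.01 in the 6 batch 1 arrays of those stages. Aurka was higher there too, by 0.66 ± 0.22. Plk1, Mcm2, Mcm4 and Mcm7 were lower in batch 3. In batch 2, 4 members were lower than in batch 1, the largest difference being that of Cdc20 (-1.11 ± 0.31, adjusted p = 0.00309). These 6 and 4 of 33 members compare with 77.4% and 56.6% of all genes called for batch 3 and batch 2.

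For 4 members, a further probe set was measured. In Ccnb2 it gave a lactation mean of 6.91 ± 0.35 (SD, n = 3) against 7.65 ± 1.09 at day 63, and in Mcm3 7.95 ± 0.39 at day 63 against 8.72 ± 0.57 (n = 10) at day 21, both in the same direction as the probe set used. In Rrm2 the other probe set had a spread of 2.17 in nulliparous and 2.37 in parous glands, against 1.05 and 1.10 for the probe set used. The order of stage means changed too. Rrm2 was lowest in nulliparous glands with the probe set used (7.91). With the other, nulliparous glands (7.38) lay above day 21, day 42, day 63 and lactation (5.91 to 6.26). The lowest mean moved from day 63 (7.92) to nulliparous glands (7.48) in Mcm3, and from nulliparous glands (9.13) to day 63 (8.25) in Mcm4.

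Many further genes of the same processes followed the members across arrays, most closely at day 42 and day 21. Of 32 other mitosis genes measured, such as Ndc80, Kif2c and Hmmr, the highest value lay in day 42 array 2 for 32, in day 21 array 8 for 31, in parous array 2 for 26 and in nulliparous array 3 for 22. Of 29 other replication genes, such as Cdc6, Gins2 and Fen1, it lay in day 42 array 2 for 28 and in day 21 array 8 for 22. In nulliparous and parous glands these replication genes were divided. Cdc6, Gins2 and Fen1 were highest in nulliparous array 5 of batch 3 (7.35, 7.42 and 7.55, against 6.81, 6.76 and 6.93 in array 3). Others, such as Pole, were highest in nulliparous array 3 (8.57) and parous array 2 (8.74). The part of batch in this was not tested. Of the other mitosis and other replication genes, 2 of 30 and 4 of 23 tested genes passed the F test over stages, with median residual SDs of 0.707 and 0.364. These shares (6.67% and 17.4%) lie below the 65.9% of all genes.

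Between day 21 and day 63, 4 of 23 other replication genes fell (17.4%), close to the 18.8% of all genes: Pole and Pold1, which encode replicative polymerase subunits, Mcm10 and Pola2. Pole fell by 1.14 ± 0.30 (adjusted p = 0.00371) and Mcm10 by 0.74 ± 0.21 (adjusted p = 0.00737). Of 30 other mitosis genes tested, Smc4, a condensin subunit, fell (-0.66 ± 0.21, adjusted p = 0.0162) and Incenp, a subunit of the chromosomal passenger complex, rose (0.63 ± 0.21, adjusted p = 0.0199). In lactation against day 21, 2 of 30 other mitosis genes were lower (6.67%) and 1 was higher (3.33%). Of 23 other replication genes, 3 were lower (13%) and 1 was higher (4.35%). These shares lie below the 24.5% of all genes called lower and the 31.5% called higher. The lower genes were Depdc1 (-1.76 ± 0.61), Smc4 (-1.51 ± 0.28), Mcm10 (-1.07 ± 0.28), Dut (-1.04 ± 0.23) and Cdc45 (-0.87 ± 0.31). The higher ones were Incenp (1.23 ± 0.28) and Fen1, the flap endonuclease (0.96 ± 0.23), each at an adjusted p under 0.05 in limma. Depdc1 read 4.69 to 5.52 in lactation, under the low-value floor of 7.645.

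Genes that control entry into and passage through the cycle formed a further list. Of 32 tested, 15 passed the F test over stages (46.9%), against 65.9% of all genes, with a median residual SD of 0.246. Between day 21 and day 63, 9 fell and 4 rose (28.1% and 12.5%), against 18.8% and 19.2% of all genes. Ccnd2, cyclin D2, fell by 1.14 ± 0.11 (adjusted p = 2.68e-09), Cdkn2c, the Cdk4 and Cdk6 inhibitor p18, by 1.23 ± 0.16 (adjusted p = 1.03e-06), and Rb1 rose by 1.18 ± 0.12 (adjusted p = 1.59e-08), with no overlap of arrays in these 3 genes. Gadd45a, a stress-induced growth arrest gene, rose by 0.74 ± 0.16.

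In lactation against day 21, 8 of these 32 rose and 9 fell, against 31.5% and 24.5% of all genes. Gadd45a rose by 2.32 ± 0.20 (4.99-fold, adjusted p = 1.75e-10), Ccnd2 fell by 2.28 ± 0.14 (4.87-fold, adjusted p = 7.33e-14), Cdkn2c fell by 2.09 ± 0.21 and Cdc25b, a phosphatase that activates Cdk1, fell by 1.03 ± 0.24. From lactating to parous glands 3 rose and 4 fell, against 12.1% and 20.7% of all genes: Ccnd2 rose by 1.26 ± 0.17 and Ccnd1 by 1.22 ± 0.21, while Gadd45a fell by 2.21 ± 0.26 and Cdkn1a, the inhibitor p21, by 1.27 ± 0.26. No batch holds arrays of both stages, so these differences too rest on the batch terms. Gadd45a read 8.72 to 8.83 in the parous arrays of batch 1 and 10.15 and 10.84 in those of batch 3. Between parous and nulliparous glands 0 of 32 passed (limma, 0 at an unadjusted p under 0.05).

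Markers of other cells in the arrays that led their stages were not alike. In day 21 array 8 the B cell list mean (7.35) and the T cell list mean (6.83) were the lowest of the 10 arrays and the luminal list mean (9.52) the highest. Day 42 array 2 had the lowest T cell list mean of its stage (6.72), while its B cell (7.48) and luminal (9.64) list means lay in the middle of the 5 arrays. Parous array 2 had the lowest B cell (7.31) and T cell (7.38) list means of its stage and the highest luminal list mean (9.87). Nulliparous array 3 was the reverse, with the highest B cell (10.44) and T cell (9.61) list means of its stage and the lowest luminal list mean (9.42). Day 63 array 4, the highest of its stage in 19 members, also had the highest B cell (9.13) and T cell (8.64) list means there, with a luminal list mean of 9.60 against 9.58 to 10.06 in the other 4. Skeletal muscle list means of 9 or more occurred in 5 arrays, none of which was the highest of its stage in Mki67. Without these 5 arrays the count for day 63 against day 21 was 6 and that for lactation against day 63 was 1. The part of these cells in the members' values was not tested beyond the covariate and left-out-array results given above.

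Over the 10 day 21 arrays, 12 relations were computed between Mki67, Top2a, Mcm2 and Pcna and the B cell, T cell and luminal list means, and none passed adjustment (permutation tests, smallest adjusted p = 0.518). Mki67 and the luminal list had a Pearson r of 0.43 (permutation p = 0.219, adjusted p = 0.518) and a Spearman coefficient of 0.21 (permutation p = 0.562, adjusted p = 0.943). Without the 2 arrays farthest from the median luminal value r was -0.33, so the relation rests on those arrays, 2 and 8, which both lie in batch 1. Within the 6 arrays of batch 1, r was 0.87 for Mki67 (exact permutation p = 0.00833, unadjusted), 0.87 for Top2a, 0.85 for Mcm2 and 0.84 for Pcna. In the same 6 arrays r with the B cell list lay between -0.83 and -0.76 (exact permutation p from 0.111 to 0.178, unadjusted). With the T cell list it lay between -0.80 and -0.75 (exact permutation p from 0.136 to 0.189, unadjusted). None of these B cell and T cell relations had an unadjusted p under 0.05, and no relation within batch 1 was adjusted. Batch 2 has 4 arrays at day 21, too few for a value.

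Hormone-responsive genes can be set beside the leading arrays, in a look that was chosen after the values were seen. Pgr, the progesterone receptor, was lowest in the very array with the highest Mki67 at 4 of 6 stages. It read 8.20 in day 42 array 2 against 9.42 to 11.02 in the other 4, 7.69 in day 63 array 4 against 8.09 to 10.99, 7.70 in nulliparous array 3 against 8.31 to 10.67, and 7.77 in parous array 2 against 8.04 to 10.47. At day 21 and in lactation it was instead the highest there, at 7.03 against 5.22 to 6.53 and at 7.76 against 6.24 to 7.04. Areg, amphiregulin, a ligand of the EGF receptor, was lowest there at 3 of 6 stages: 7.44 in nulliparous array 3 against 9.43 to 11.31, 7.82 in parous array 2 against 9.28 to 11.34, and 6.30 in lactation array 1 against 6.31 to 6.67. The lactation values of Areg also lie under that floor, and 6.30 and 6.31 are nearly equal. Of the other 5 genes of the same list, Esr1, Foxa1, Gata3 and Wnt4 were each lowest there at 1 stage and Tnfsf11 at 3. Genes of the list were also highest there: Foxa1 and Wnt4 at 3 stages each, Esr1, Gata3, Tnfsf11 and Pgr at 2 each, and Areg at 1 (day 21, 8.56 against 6.56 to 7.28). Whether the phase of the estrous cycle moves with these values was not tested, since no array's phase is given.

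**Figure D4:**
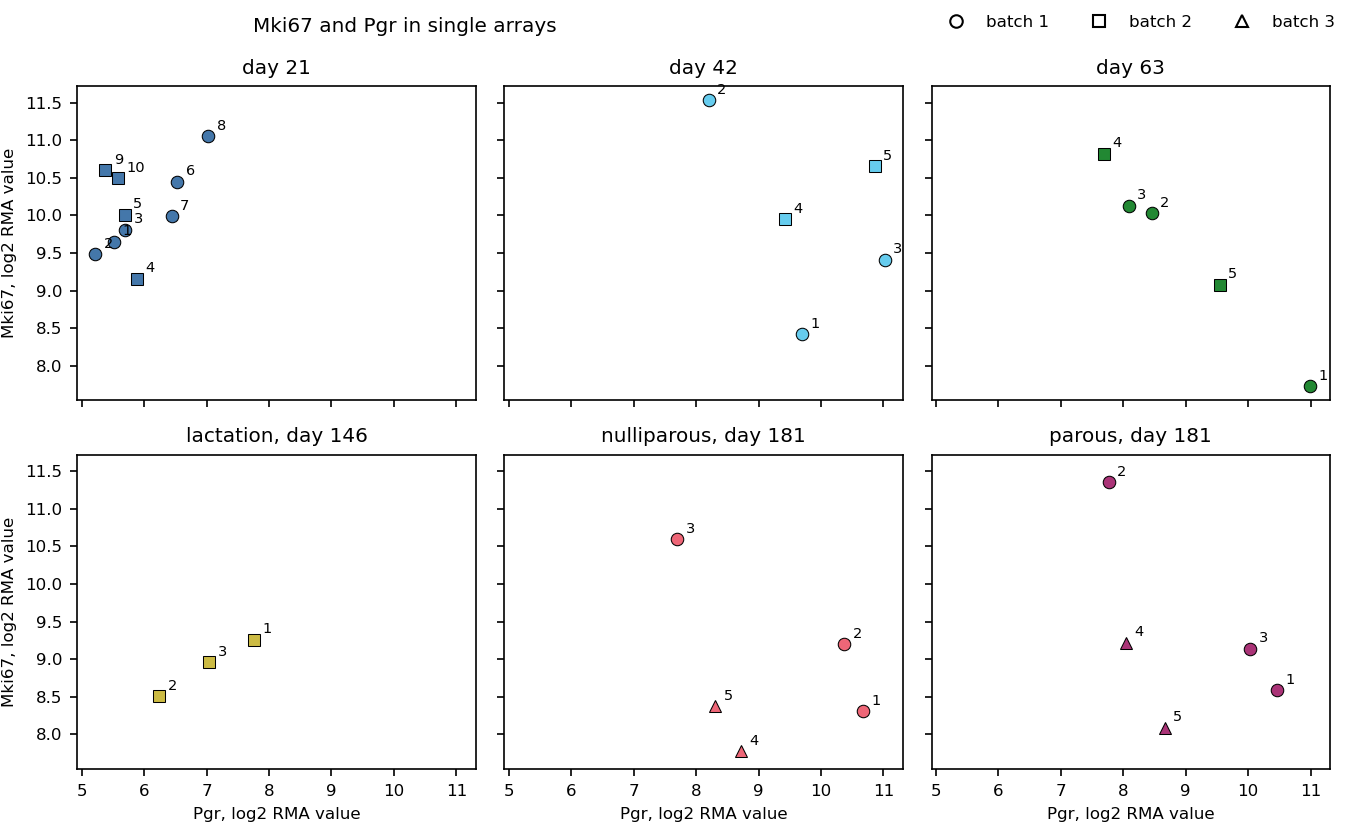
Mki67 (vertical axis) against Pgr (horizontal axis), both as log2 values, in every array, with 1 panel a stage; numbers are array numbers and the marker shape is the batch. At day 42, day 63 and in nulliparous and parous glands the array highest in Mki67 is the lowest in Pgr, and at day 21 and in lactation it is the highest in Pgr.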

How the data were processed

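Total RNA was hybridised to 33 arrays. The authors deposited log2 values for 36685 probe sets. They used RMA (background correction, normalization across arrays, probe summary) in Affymetrix Expression Console, per the submitters' processing notes, which state no versions. No detection calls or depths exist for these arrays, whose number limits the precision. Groups, batches and kits come from the labels.

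Names came from the platform annotation, which lists 1 symbol for 18511 probe sets, several for 575 and none for 17599. The low-value floor was 7.645, the median of the single-symbol probe sets, and 10986 genes passed it in 3 or more arrays. One limma 3.58.1 model (R 4.3.3) per gene held 6 stages and 3 batches (25 residual degrees of freedom, variances moderated with an intensity trend). Its tests were two-sided, with Benjamini-Hochberg adjustment over all genes at 0.05. Separate animals are not recorded for every array, so p-values measure the spread between arrays. The procedure was tested on simulated data. Correlations were tested by permutation (scipy 1.17.1, 100000 resamples, exact within batch 1). Figures were drawn with matplotlib 3.10.9.

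Named throughout were Mki67, Top2a, Ccnb1, Cdk1, Aurka, Plk1, Bub1, Mcm2, Mcm5, Pcna, Rrm2, Tyms and the called members, and of other cell cycle lists up to 4 called genes of largest difference per comparison. The members and gene lists were chosen with earlier results of these data known. Alternatives were batch left out or as a random block, no low-value filter, a further quantile normalization or median centring, averaged probe sets, a fit of the compared groups alone, B cell or luminal list means as covariates, single batches, no batch 3 and each array left out in turn. Leaving out 5 arrays of high skeletal muscle content and a T cell covariate were added after seeing the data.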

Additional observations from a re-analysis of the deposited data

Results flagged for a closer look

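In 90 groups of 4 to 10 arrays (1 gene in 1 stage each), 4 had an array farther from its neighbours than Dixon's 95% limit; chance flags about 1 group in 20. Day 42 array 2 stood apart in Cdk1 (9.77, next array 7.62), in Ccnb1, the cyclin partner of Cdk1 (9.51, next array 7.53), and in Aurka (8.48, next array 7.65). Day 21 array 8 stood apart in Ccnb2 (10.50, next array 9.95). These genes share arrays, so the 4 values are not independent of each other.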

How the results depend on the processing

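No paired analysis was possible because the array labels carry no replicate numbers shared across the groups. Counts of called members changed as follows, and the causes were not tested. Day 63 against day 21 (6): 3 without a batch term, 2 with the B cell covariate, 1 with the luminal or T cell covariate, 0 within batch 2, and 2 to 6 with arrays left out in turn. Nulliparous against day 21 (1): 2 without a batch term, 2 with only the groups compared, 0 within batch 1, and 1 to 2 with arrays left out. Lactation against day 63 (2): 0 without a batch term and with only the groups compared, 1 with no filter, with arrays centred, with the probe set mean, within batch 2, without batch 3 and without arrays of high skeletal muscle content, and 0 to 2 with arrays left out. Lactation against day 21 (3): 5 without a batch term, 1 with the luminal covariate, 7 with only the groups compared, 9 within batch 2, and 1 to 5 with arrays left out. Parous against lactation (0): 2 without a batch term, 1 after repeated quantile normalization, 1 with the B cell, luminal or T cell covariate, 4 with only the groups compared, where batch and stage cannot be told apart, and 0 to 2 with arrays left out. Any stage difference (2): 1 with no filter, with the B cell or luminal covariate, within batch 1, without batch 3 and without arrays of high skeletal muscle content, and 1 to 4 with arrays left out. Day 42 against day 21 (0) gave 0 to 2 with arrays left out. The counts for the other 3 comparisons stayed at 0 under every alternative run. No called member changed direction in any of them.

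Over the day 21 arrays without the 2 farthest, r changed sign for Mki67 (B cell 0.12, T cell 0.13, luminal -0.33), Top2a (B cell 0.12, T cell 0.18, luminal -0.14), Mcm2 (B cell 0.24, T cell 0.39) and Pcna (luminal -0.17). Within batch 1, r with the luminal list had an unadjusted permutation p under 0.05 for Mki67 (0.87), Top2a (0.87), Mcm2 (0.85) and Pcna (0.84). No adjustment was made within batch 1, whose 6 day 21 arrays include arrays 2 and 8, the 2 farthest in the luminal list. With 3 lactation arrays in 1 batch, and SEs of 0.48 to 0.79 for Mki67, differences of about 2-fold in the most variable members were not detectable.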
